A study of Danio rerio with 15 samples.

Results

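The genes described here parted axin2-/- and TL zebrafish embryos from axin2-/-;nkd1-/- double mutant, nkd1-/- and Tu embryos at 50% epiboly. They were chosen from the counts themselves. Counts were divided by the library total and multiplied by 1000000 (CPM), and the 5 group means of log2(CPM + 0.5) were sorted. A gene was kept when the largest gap between neighbouring means was at least 0.7, lay between axin2-/- and TL on one side and the other 3 groups on the other, and left no overlap between samples of the 2 sides. The highest group mean also had to reach 2 CPM. Of 32520 genes in the table, 414 met these conditions, and the 200 with the largest gaps were taken. In axin2-/- and TL, 94 of them were higher and 106 were lower. A symbol was found for 172 of the 200, and the other 28 are given by their Ensembl ID.

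The study made axin2-/- fish by Cas9 in the TL strain and nkd1-/- fish by Cas9 in the Tu strain, and obtained the double mutant by crossing the 2 mutant lines. TL and Tu are laboratory strains, and their labels name no mutation. Each group had 3 samples of 10 pooled whole embryos, taken on different days from the same parents, so the replicates show how collections from one set of parents vary and say nothing of other parents. A mutation and the family that carries it therefore cannot be told apart in any single comparison, and a strain and its family cannot either.

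Axin2 is a scaffold of the complex that marks beta-catenin for destruction, and Nkd1 is an inhibitor that acts on Dishevelled. Both are induced by Wnt signalling and dampen it. Laboratory zebrafish strains are not uniform: they carry different alleles and different copies of fast-evolving gene families. Among these are the class I genes of the major histocompatibility complex (MHC), which display peptides to immune cells, and large clusters of C2H2 zinc finger genes. The double mutant descends from both backgrounds, whereas each single mutant was made in one.

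Library totals lay between 44098543 and 68135442 counts. The tissue label was checked against markers of the embryonic margin at this stage. The mesoderm gene tbxta lay between 470 and 934 CPM, the organizer gene gsc between 39.1 and 53.7 CPM, and the endoderm gene sox32 between 74.1 and 203 CPM over the 15 samples. The transcript of axin2 was at 101, 99.1 and 85.4 CPM in axin2-/-, 72.4, 72.9 and 62.6 CPM in TL, 99.7, 110 and 104 CPM in the double mutant, 81.1, 92.7 and 82.6 CPM in nkd1-/- and 58.3, 61.6 and 66.9 CPM in Tu. That of nkd1 was at 18.8, 27.2 and 15.5 CPM in axin2-/-, 15.1, 16.6 and 14.2 CPM in TL, 21.2, 21.9 and 25.9 CPM in the double mutant, 18.6, 24.1 and 21.5 CPM in nkd1-/- and 11.3, 12.5 and 12.9 CPM in Tu. Counts over a whole gene need not fall with a Cas9 lesion, so these levels do not check the genotype labels. Neither gene met the conditions above.

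In this and the following paragraphs, values of the 200 genes that set the 2 sides against each other describe their choice and carry no test. Calls over whole gene lists and over all genes tested, given further below, did use edgeR for that contrast. The antigen presentation list among them includes some of the 200. The gap ran from 1.23 to 5.58 on the log2(CPM + 0.5) scale among the 94 genes higher in axin2-/- and TL, with a median of 1.77. Among the 106 lower genes it ran from 1.22 to 5.30, with a median of 1.70. At the lower end, si:ch211-216b21.1 (gap 1.223) and si:dkey-257e4.6 (1.218) were the last genes taken, and EOGT (ENSDARG00000022853, 1.217) and cfhl5 (1.216) were the first left out. The edge is thus not a break in the values. Most of the genes were weakly expressed. In 108 of the 200 the highest group mean was under 10 CPM, and in 85 every sample of the low side was under 1 CPM. At the other end, 64 genes had at least 10 CPM in every sample of the high side.

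**Figure D1:**
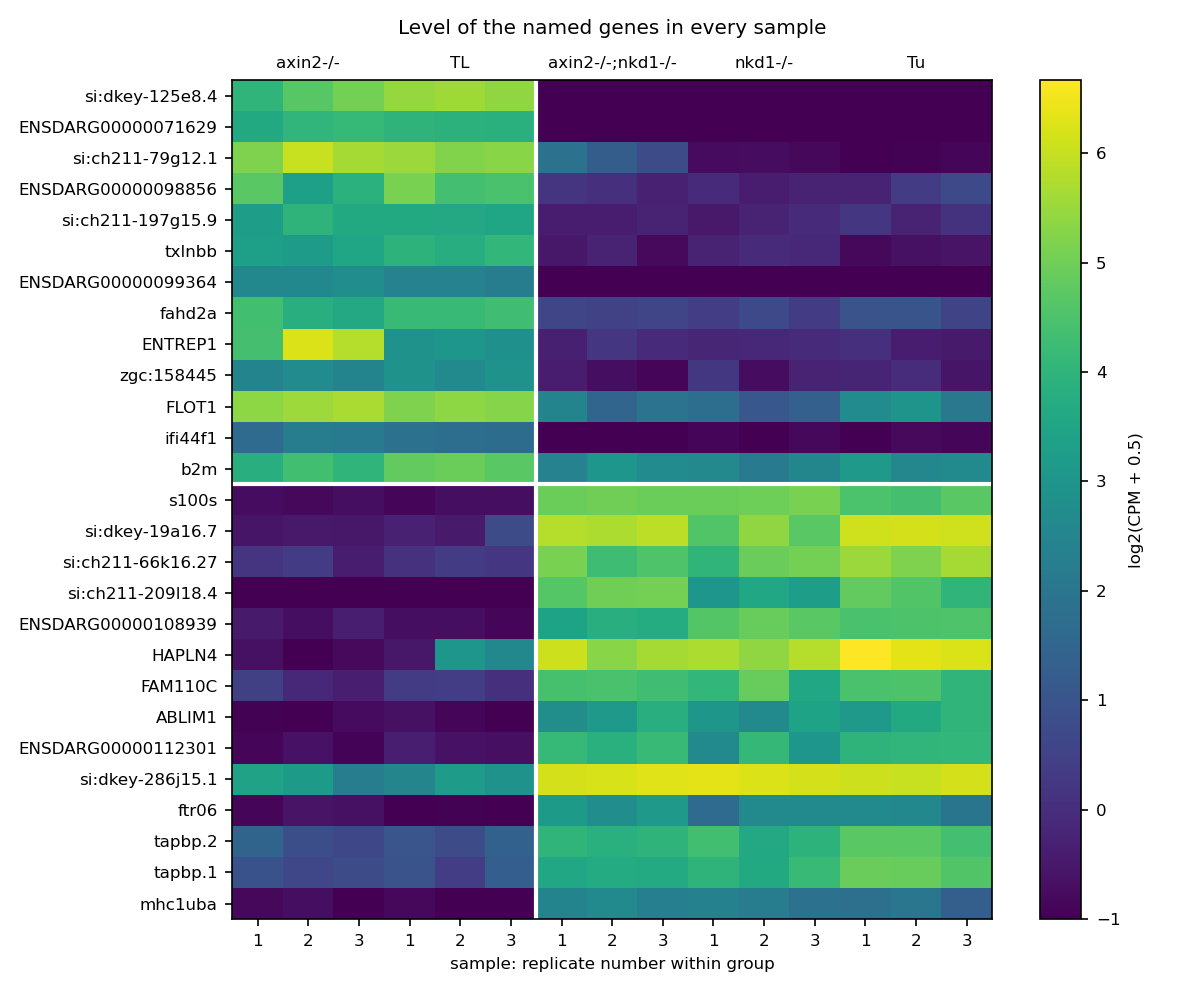
Level of 27 genes in each of the 15 samples, as log2(CPM + 0.5) by colour: the 12 with the largest gap in each direction, and 3 members of a list of antigen presentation genes. Columns are samples by group, and the white lines part the 2 sides and the 2 directions; no sample crosses to the other side for any gene.

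The gene with the largest gap was si:dkey-125e8.4 (ENSDARG00000041333). It was at 15.6, 24.9 and 32.6 CPM in axin2-/- and at 42.9, 47.0 and 41.4 CPM in TL, and had no count in any of the 9 double mutant, nkd1-/- and Tu samples. With each of those libraries taken at a floor of 3 counts, the mean of axin2-/- and TL was at least 586-fold higher. The unnamed genes ENSDARG00000071629 and ENSDARG00000099364 shared this pattern of presence and absence, with means of 14.9 ± 1.71 and 5.16 ± 0.73 CPM over the 6 axin2-/- and TL samples (SD, n = 6) and no count elsewhere, at least 256-fold and 88.8-fold higher.

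Presence on the other side alone was seen in 3 genes as well. The gene si:ch211-209l18.4 (ENSDARG00000090847) had no count in axin2-/- or TL, and was at 24.4, 31.4 and 32.7 CPM in the double mutant, 7.67, 11.5 and 9.35 CPM in nkd1-/- and 27.6, 23.5 and 15.6 CPM in Tu. Against the floor, axin2-/- and TL were at least 348-fold lower than the mean of the other 9 samples. The genes zgc:194221 and si:ch1073-188e1.1 had no count in axin2-/- or TL either, with means of 3.91 ± 1.28 and 3.19 ± 1.04 CPM over the other 9 samples (SD, n = 9). A count of 0 limits the RNA that was counted to this gene ID and does not show that the gene is missing from the genome. Nor does it show that no RNA was made, because how reads were matched to gene IDs is not given in the sources used here. Low levels of other genes have the same limit.

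The second largest gap belonged to s100s (ENSDARG00000036773), a member of the S100 family of calcium-binding proteins. Its level was 0.0968, 0.0616 and 0.111 CPM in axin2-/-, 0.0372, 0.114 and 0.106 CPM in TL, 30.3, 31.5 and 30.5 CPM in the double mutant, 30.0, 30.7 and 34.0 CPM in nkd1-/- and 22.1, 20.7 and 25.5 CPM in Tu. The 6 samples of axin2-/- and TL were thus all near 0.1 CPM or below, and the samples of the other side lay close together, with Tu lowest among them. HAPLN4 (ENSDARG00000018542), a link protein of the hyaluronan matrix, was at 0.135, 0 and 0.0664 CPM in axin2-/-, 0.204, 7.58 and 5.46 CPM in TL, 67.5, 38.9 and 48.9 CPM in the double mutant, 52.8, 41.9 and 55.7 CPM in nkd1-/- and 101, 81.8 and 74.6 CPM in Tu. Here the TL samples disagreed among themselves, with 1 of the 3 at the axin2-/- level.

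The other genes with the largest gaps were parted at moderate levels. The unnamed gene ENSDARG00000098856 ranged from 9.55 to 25.4 CPM in axin2-/- and from 20.4 to 34.2 CPM in TL, and reached at most 1.10 CPM elsewhere. The gene txlnbb, of the taxilin family, was at 9.48, 8.93 and 10.8 CPM in axin2-/-, 13.2 to 16.2 CPM in TL, 0.201, 0.34 and 0.0722 CPM in the double mutant, 0.355, 0.44 and 0.396 CPM in nkd1-/- and 0.0633, 0.133 and 0.16 CPM in Tu. Its small nkd1-/- level exceeded that of Tu (log2 fold change 1.71 ± 0.41 SE, edgeR adjusted p = 0.00454). The gene fahd2a, of the fumarylacetoacetate hydrolase family, was at 11.8 to 19.7 CPM in axin2-/-, 17.3 to 19.6 CPM in TL and 0.749 to 1.5 CPM in the other 9 samples. The genes si:ch211-197g15.9 and zgc:158445 were alike in shape, at 9.29 to 15.4 CPM and 4.97 to 6.02 CPM in axin2-/-, with no sample above 0.69 CPM on the far side. The interferon-induced family gene ifi44f1 was at 2.71, 4.13 and 3.87 CPM in axin2-/- and 3.12, 2.91 and 2.74 CPM in TL, and at or below 0.0758 CPM elsewhere.

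Among the lower genes, ABLIM1 (ENSDARG00000045064), an actin-binding LIM protein, stayed at or below 0.13 CPM in axin2-/- and TL, against 6.45 to 13.5 CPM in the double mutant, 5.68 to 10.4 CPM in nkd1-/- and 8.16 to 15.7 CPM in Tu. FAM110C (ENSDARG00000096989) was at 0.288 to 0.871 CPM in axin2-/-, 0.53 to 0.817 CPM in TL, 19.5 to 21.7 CPM in the double mutant, 11.4 to 28.9 CPM in nkd1-/- and 15.8 to 22.3 CPM in Tu. In si:dkey-286j15.1 the low side was well above 0, at 4.29 to 10.1 CPM in axin2-/- and 5.15 to 8.90 CPM in TL, against 65.1 to 81.9 CPM in the other 9 samples. No difference within a side was called for these 3 genes by edgeR. The genes si:ch211-66k16.27 and ENSDARG00000112301 were below 1 CPM in all axin2-/- and TL samples, and reached at least 15.7 CPM and 5.7 CPM in all samples of the other groups.

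Genes of general cell biology were also parted, at higher levels. They were picked for description after their values were seen. GLUL (ENSDARG00000099776), the enzyme that makes glutamine, was the most abundant gene of the set: 179, 221 and 134 CPM in axin2-/-, 153, 218 and 167 CPM in TL, 722, 482 and 642 CPM in the double mutant, 518, 510 and 545 CPM in nkd1-/- and 517, 508 and 603 CPM in Tu. No difference within a side was called for it, with edgeR adjusted p values from 0.45 to 0.968. DNMT3B (ENSDARG00000036791), a de novo DNA methyltransferase, was at 12.5, 7.23 and 7.70 CPM in axin2-/-, 14.3, 11.6 and 9.70 CPM in TL, 46.9, 40.2 and 51.4 CPM in the double mutant, 98.0, 49.1 and 67.6 CPM in nkd1-/- and 56.8, 50.2 and 38.3 CPM in Tu. The far side overlapped among itself, and no difference within a side was called (edgeR adjusted p = 0.0661 to 0.88). PRDX3 (ENSDARG00000032102), a mitochondrial peroxidase, was at 6.31, 5.44 and 5.49 CPM in axin2-/-, 7.38, 5.09 and 5.87 CPM in TL, 34.0, 52.5 and 47.6 CPM in the double mutant, 84.2, 77.4 and 72.5 CPM in nkd1-/- and 76.1, 82.6 and 92.3 CPM in Tu. Its double mutant samples lay below every nkd1-/- and Tu sample (double mutant against nkd1-/-: log2 fold change -0.79 ± 0.16 SE, edgeR adjusted p = 0.00317). In the opposite direction, cd44a (ENSDARG00000087863), a hyaluronan receptor, was at 36.4, 34.4 and 28.1 CPM in axin2-/-, 27.3, 41.0 and 34.6 CPM in TL, 3.65, 2.93 and 5.47 CPM in the double mutant, 3.90, 5.41 and 3.38 CPM in nkd1-/- and 8.22, 8.51 and 8.74 CPM in Tu. Tu lay above every double mutant and nkd1-/- sample of this gene, and remained below axin2-/- and TL.

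Genes of antigen presentation were among the 200. Of 11 lists of pathway and marker genes, the antigen presentation list had 3 members among its 15 genes tested, and the other 10 had none, including 27 Wnt target genes and 42 Wnt pathway components. The 200 are 0.925% of all genes tested, so a list of this size would hold fewer than 1 at that share, and its having none is no result. The 3 members were mhc1uba, a class I heavy chain, tapbp.1, a tapasin that loads peptides onto class I molecules, and b2m, their shared light chain. A second tapasin, tapbp.2, was named through its gap. In mhc1uba (ENSDARG00000075963) the levels were 0.0581, 0.103 and 0 CPM in axin2-/-, 0.0557, 0 and 0 CPM in TL, 5.0, 5.76 and 4.42 CPM in the double mutant, 4.63, 4.17 and 3.21 CPM in nkd1-/- and 3.06, 3.51 and 1.98 CPM in Tu. In the first 2 groups this is at most 5 counts in a library. The gene tapbp.1 (ENSDARG00000079402) was at 1.41, 1.05 and 1.17 CPM in axin2-/-, 1.45, 0.817 and 1.96 CPM in TL, 11.7, 12.7 and 12.4 CPM in the double mutant, 15.2, 12.1 and 17.3 CPM in nkd1-/- and 29.5, 29.1 and 23.4 CPM in Tu. Its neighbour tapbp.2 (ENSDARG00000045011) was at 2.25, 1.29 and 1.08 CPM in axin2-/-, 1.51, 1.22 and 2.08 CPM in TL, 15.6, 14.0 and 15.3 CPM in the double mutant, 19.7, 11.9 and 14.9 CPM in nkd1-/- and 25.3, 25.8 and 20.4 CPM in Tu. Both tapasins were low in axin2-/- and TL, and in both all 3 Tu samples lay above every double mutant and nkd1-/- sample.

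The light chain went the other way. The level of b2m (ENSDARG00000053136) was 13.6, 19.9 and 15.8 CPM in axin2-/-, 27.6, 30.1 and 25.5 CPM in TL, 4.73, 7.60 and 6.05 CPM in the double mutant, 5.60, 3.96 and 5.28 CPM in nkd1-/- and 8.18, 5.37 and 5.92 CPM in Tu. FLOT1 (ENSDARG00000001710), a scaffold of membrane rafts that sat in the same stretch of the table as the tapasins and mhc1uba, was at 40.6, 46.1 and 51.7 CPM in axin2-/-, 35.6, 40.8 and 38.3 CPM in TL, 5.04, 2.34 and 3.3 CPM in the double mutant, 2.90, 1.63 and 2.03 CPM in nkd1-/- and 5.95, 7.32 and 3.74 CPM in Tu. These 4 neighbours fell within 9 consecutive genes tested, with FLOT1 higher and the other 3 lower in axin2-/- and TL. Over the whole antigen presentation list, 5 genes were higher and 5 lower in the mean of axin2-/- and TL than in the mean of the other groups by edgeR, a contrast the choice had used. That contrast called 44.9% of all genes tested, 22.8% higher and 22.1% lower.

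**Figure D2:**
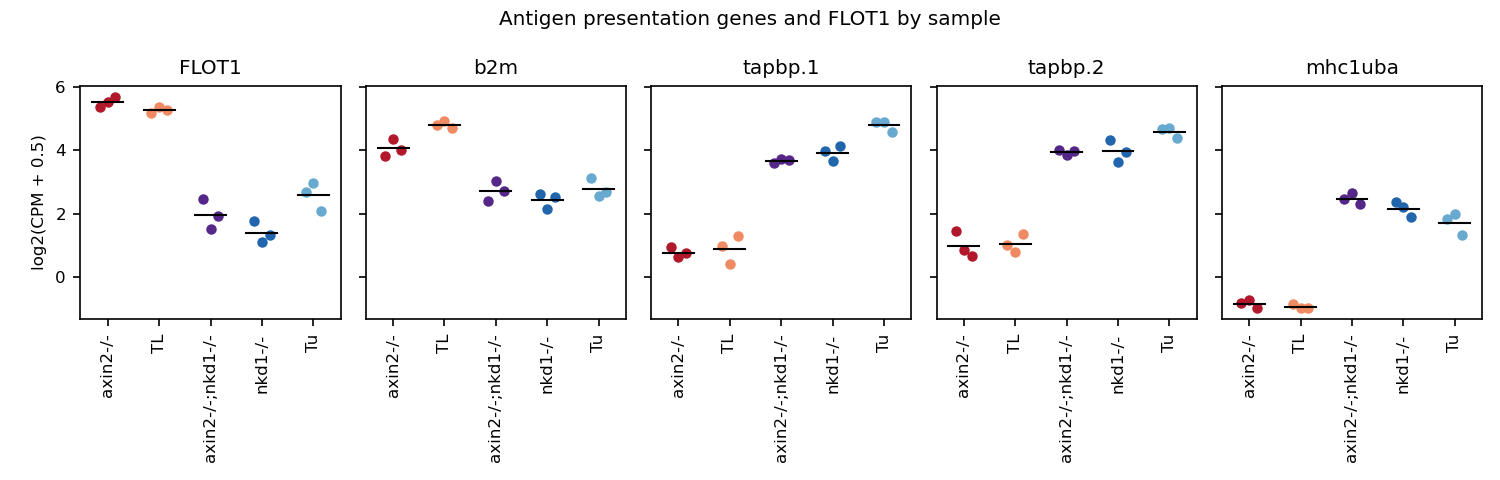
Levels of FLOT1, b2m, tapbp.1, tapbp.2 and mhc1uba as log2(CPM + 0.5), with a point for each sample and a bar for the mean of 3. FLOT1 and b2m are higher in all 6 axin2-/- and TL samples, and the tapasins and mhc1uba are higher in all 9 samples of the other groups.

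Differences within a side were tested, because the choice of the genes set no direction for them. A limit remains where the low side is near 0, because a group at 0 can only be exceeded. Every sample of the low side was under 1 CPM in 37 of the 94 higher and 48 of the 106 lower genes. The choice did limit the size of these differences: neighbouring group means had to lie closer together than the gap. With 3 groups on one side, the outer 2 may still differ by more than the gap, as the double mutant and Tu did in znf1043 (gap 1.67, fitted log2 fold change 2.12). The test was edgeR's quasi-likelihood test over all 21614 genes that passed a filter on low counts, with Benjamini-Hochberg adjustment over all of them. All 200 genes passed that filter. Between axin2-/- and TL, 43 of the 200 were called, 21.5% against a background of 21.2% over all genes tested. In the double mutant against Tu, 70 of the 200 were called, where the background was 36.4%. Between nkd1-/- and Tu, 49 were called (24.5%, background 29.3%). These shares lay near or below the background. Between the double mutant and nkd1-/-, 43 were called, 21.5% against a background of 11.5%. A contrast of the last difference with that between axin2-/- and TL called 66 (33.0%, background 19.2%), 44 of them positive and 22 negative (background 9.65% and 9.54%).

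The tapasins and FLOT1 also differed within their sides. The double mutant was below Tu in tapbp.1 by a log2 fold change of -1.14 ± 0.21 (SE; edgeR adjusted p = 0.00051), and nkd1-/- was below Tu by -0.88 ± 0.21 (edgeR adjusted p = 0.00438). For tapbp.2 both calls against Tu, at edgeR adjusted p values of 0.0309 for the double mutant and 0.0437 for nkd1-/-, were lost when single libraries were left out: any of 5 for the double mutant (edgeR adjusted p = 0.058 to 0.0984) and any of Tu replicates 1 and 2 and nkd1-/- replicates 2 and 3 for nkd1-/- (edgeR adjusted p = 0.108 to 0.151). FLOT1 was lower in nkd1-/- than in Tu by -1.38 ± 0.26 (edgeR adjusted p = 0.000721). For b2m, axin2-/- was below TL by -0.73 ± 0.20 (edgeR adjusted p = 0.0132), with no overlap between the samples. The last call was lost without axin2-/- replicate 1 (edgeR adjusted p = 0.0536) and without TL replicate 2 (edgeR adjusted p = 0.0532). In mhc1uba no difference within a side was called, with edgeR adjusted p values from 0.0742 to 0.601.

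Between axin2-/- and TL, the calls were split as follows, and the difference between the 2 sets was not tested. Of the 94 genes higher in both groups, 9 were called (9.57%), 6 higher and 3 lower in axin2-/-. Of the 106 genes lower in both, 34 were called (32.1%), 14 higher and 20 lower in axin2-/-. The background was 10.6% higher and 10.6% lower. In 48 of the 106 every axin2-/- and TL sample was under 1 CPM, and the limit near 0 applies to their calls. ENTREP1 (ENSDARG00000099946) was the largest difference among the higher genes named: 20.9, 75.5 and 56.2 CPM in axin2-/- and 6.99, 7.62 and 6.63 CPM in TL, a log2 fold change of 2.87 ± 0.35 (SE; edgeR adjusted p = 1.73e-05). It stayed at or below 0.658 CPM in every double mutant, nkd1-/- and Tu sample. TNC (ENSDARG00000078362), the matrix protein tenascin C, was at 13.8, 16.0 and 15.7 CPM in axin2-/- and 8.53, 5.08 and 4.96 CPM in TL, a log2 fold change of 1.32 ± 0.25 (SE; edgeR adjusted p = 0.000984). Among the lower genes, HAPLN4 was lower in axin2-/- than in TL by -5.96 ± 0.99 on the log2 scale (edgeR adjusted p = 0.000357), a value that rests on 2 of the 3 TL samples and was -7.0 without axin2-/- replicate 1 and -5.32 without TL replicate 2.

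The double mutant and nkd1-/- were compared in the genes of each direction. Of the 94 higher ones, 29 were called between the double mutant and nkd1-/-, 25 of them higher in the double mutant and 4 lower, where the background over all genes tested was 6.06% higher and 5.49% lower. The median log2 fold change of the 94 was 0.44, against -0.007 over all genes tested. These counts are a description. Another of the 200 lay within 10 genes tested for 102 of them, so the genes need not be independent of each other. In 37 of the 94 every double mutant, nkd1-/- and Tu sample was under 1 CPM, and where nkd1-/- is near 0 a call can hardly go any way but higher in the double mutant. Of these 37, 6 were called higher and 1 lower, and of the other 57, 19 were called higher and 3 lower. This division uses the same samples, those of the double mutant included. A gene near 0 in nkd1-/- but above 1 CPM in a double mutant sample, such as vegfba, fell among the 57. The calls among the 57 therefore cannot show a direction apart from the limit near 0. Among the 106 lower genes 14 were called, 7 higher and 7 lower in the double mutant, with a median of -0.13. In the double mutant against Tu, a comparison that shares the double mutant samples, 29 of the 94 higher genes were called higher and 11 lower (background 17.8% and 18.6%). In nkd1-/- against Tu, the counts among the 94 were 13 higher and 10 lower (background 14.4% and 14.8%). The limit near 0 applies to both comparisons against Tu as well. Of the 3 groups on the far side, the double mutant had the mean nearest to axin2-/- and TL in 45 of the 94 higher genes, nkd1-/- in 18 and Tu in 31. In the 106 lower genes these numbers were 43, 30 and 33. These numbers come from the group means that chose the genes, and no share over other genes was taken. They describe the 200 genes and were not tested.

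**Figure D3:**
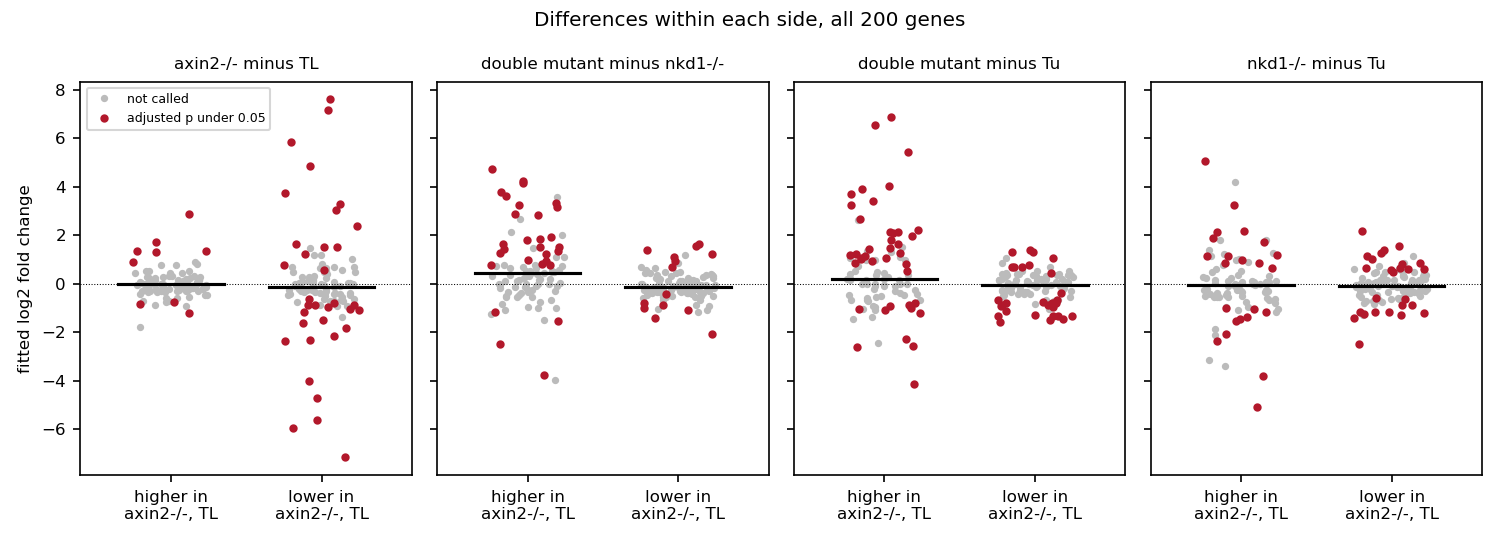
Fitted log2 fold change of each of the 200 genes in the 4 comparisons within a side, by whether the gene was higher or lower in axin2-/- and TL; red points have an edgeR adjusted p under 0.05 and black bars are medians. In the double mutant minus nkd1-/- the median is 0.44 for the higher genes and -0.13 for the lower genes.

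Single genes with the double mutant above nkd1-/- were as follows. The gene si:ch211-79g12.1 (ENSDARG00000116692) was at 35.7, 64.1 and 49.1 CPM in axin2-/-, 45.1, 36.5 and 38.8 CPM in TL, 3.10, 1.90 and 1.23 CPM in the double mutant, 0.0788, 0.0957 and 0.0587 CPM in nkd1-/- and 0, 0.019 and 0.04 CPM in Tu. It was thus low but clearly counted in all 3 double mutant samples, and near 0 in nkd1-/- and Tu (double mutant against nkd1-/-: log2 fold change 4.73 ± 0.43 SE, edgeR adjusted p = 1.35e-06). The gene zgc:173714 (ENSDARG00000103495) was at 85.9, 68.0 and 58.6 CPM in axin2-/-, 71.4, 70.6 and 78.1 CPM in TL, 20.7, 23.4 and 22.4 CPM in the double mutant, 8.04, 7.75 and 8.88 CPM in nkd1-/- and 6.54, 5.46 and 3.76 CPM in Tu. Its 3 double mutant samples lay between the others with a spread of under 3 CPM (double mutant against nkd1-/-: log2 fold change 1.44 ± 0.17 SE, edgeR adjusted p = 1.95e-05).

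Some signalling genes among the higher ones also had the double mutant above nkd1-/-, at low levels. The growth factor vegfba (ENSDARG00000090997), of the VEGF family, was at 5.01, 6.69 and 7.68 CPM in axin2-/-, 10.2, 5.53 and 6.41 CPM in TL, 0.322, 2.93 and 1.37 CPM in the double mutant, 0.158, 0.0765 and 0.132 CPM in nkd1-/- and 0.105, 0.246 and 0.36 CPM in Tu. The double mutant samples were uneven, and 1 of them lay within the range of the Tu samples (double mutant against nkd1-/-: log2 fold change 3.63 ± 0.63 SE, edgeR adjusted p = 0.00104, 2.80 without double mutant replicate 2). KIT (ENSDARG00000043317), a receptor tyrosine kinase, was at 1.86, 3.65 and 5.40 CPM in axin2-/-, 2.56, 2.53 and 2.60 CPM in TL, 0.201, 0.431 and 0.343 CPM in the double mutant, 0.0197, 0.0765 and 0 CPM in nkd1-/- and 0.19, 0.0379 and 0.12 CPM in Tu. The double mutant exceeded nkd1-/- by 3.35 ± 0.74 on the log2 scale (SE; edgeR adjusted p = 0.0066), a value resting on at most 4 counts in each nkd1-/- library. It was 4.95 without nkd1-/- replicate 2 and 2.67 without nkd1-/- replicate 3. TNC and HEPACAM2 (ENSDARG00000061365) were among the 4 genes that went the other way, with double mutant levels of 0.504, 0.476 and 0.307 CPM against 0.985, 1.26 and 1.5 CPM in nkd1-/- for TNC (log2 fold change -1.54 ± 0.30 SE, edgeR adjusted p = 0.00227). The other 2 were sid1 and ENSDARG00000115646.

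The lower genes gave examples in each direction. The gene si:ch211-209l18.4, given above, was higher in the double mutant than in nkd1-/- by a log2 fold change of 1.63 ± 0.23 (SE; edgeR adjusted p = 0.000493), and nkd1-/- was below Tu by -1.20 ± 0.23 (edgeR adjusted p = 0.00164). The unnamed gene ENSDARG00000108939 was at 0.232, 0.103 and 0.288 CPM in axin2-/-, 0.111, 0.114 and 0.053 CPM in TL, 10.3, 13.6 and 13.0 CPM in the double mutant, 23.8, 29.3 and 25.6 CPM in nkd1-/- and 21.7, 22.4 and 23.0 CPM in Tu. Its double mutant samples all lay below those of nkd1-/- and Tu (double mutant against nkd1-/-: log2 fold change -1.09 ± 0.19 SE, edgeR adjusted p = 0.00114). The gene si:dkey-19a16.7 was lower in nkd1-/-, at 23.5, 41.9 and 25.8 CPM, than in Tu, at 68.1, 71.4 and 69.0 CPM (log2 fold change -1.17 ± 0.30 SE, edgeR adjusted p = 0.00795).

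Zinc finger genes were the largest named family. This family was picked out after the values were seen and was counted by symbol. Genes with a znf number made up 20 of the 200 (10.0%) and 307 of the 21614 genes tested (1.42%), so 6.51% of the tested family was in the set. In axin2-/- and TL, 12 were higher and 8 were lower. Copies of this family resemble each other closely, and how reads that match several copies were counted is not given in the sources used here, so levels of single copies are uncertain. The most abundant was znf1043 (ENSDARG00000105067), at 263, 142 and 133 CPM in axin2-/-, 228, 197 and 240 CPM in TL, 41.8, 63.7 and 56.4 CPM in the double mutant, 37.9, 18.6 and 27.9 CPM in nkd1-/- and 12.3, 10.8 and 14.2 CPM in Tu. Its levels were graded on the far side, with all double mutant samples above all nkd1-/- samples and those above all Tu samples. In znf1050 (ENSDARG00000096210) the double mutant was lowest instead, with 190, 106 and 114 CPM in axin2-/-, 145, 123 and 139 CPM in TL, 18.4, 21.2 and 21.2 CPM in the double mutant, 27.8, 22.3 and 30.2 CPM in nkd1-/- and 28.1, 33.4 and 53.5 CPM in Tu. The gene znf1131 (ENSDARG00000104822) was at 7.03, 5.75 and 5.42 CPM in axin2-/-, 8.01, 6.67 and 5.51 CPM in TL, 1.45, 2.22 and 1.44 CPM in the double mutant, 0.118, 0.115 and 0.132 CPM in nkd1-/- and 0.316, 0.55 and 1.02 CPM in Tu, and so had nkd1-/- lowest (double mutant against nkd1-/-: log2 fold change 3.78 ± 0.40 SE, edgeR adjusted p = 8.65e-06).

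Of the 12 higher zinc finger genes, 8 were called higher and 2 lower in the double mutant than in Tu (background 17.8% and 18.6%), and 5 higher and 2 lower in nkd1-/- than in Tu (background 14.4% and 14.8%). Between the double mutant and nkd1-/-, 5 of the 12 were called, each higher in the double mutant (background 6.06% higher and 5.49% lower). In znf1043 that call (edgeR adjusted p = 0.0148) was lost without double mutant replicate 2 or 3 or nkd1-/- replicate 2 or 3 (edgeR adjusted p = 0.0543 to 0.0712). Of the 8 lower zinc finger genes, 1 was called between the double mutant and Tu and 2 between nkd1-/- and Tu. Between the double mutant and nkd1-/-, 0 of the 8 were called. Between axin2-/- and TL, 2 of the 8 and 0 of the 12 were called (background 21.2% in either direction). The medians of the group means of the 12 were 26.5 CPM in axin2-/-, 30.1 CPM in TL, 8.69 CPM in the double mutant, 4.58 CPM in nkd1-/- and 2.6 CPM in Tu. Those of the 8 were 4.46 CPM in axin2-/-, 6.5 CPM in TL, 23.9 CPM in the double mutant, 25.1 CPM in nkd1-/- and 21.8 CPM in Tu. The choice of the genes fixed which side was higher. Group means of the 12 went down to 0.122 CPM in nkd1-/- and 0.091 CPM in Tu, so the limit near 0 applies to their calls. Some of the 12 lay in the same stretch of rows, such as znf1104 and znf1131, and need not be independent of each other.

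**Figure D4:**
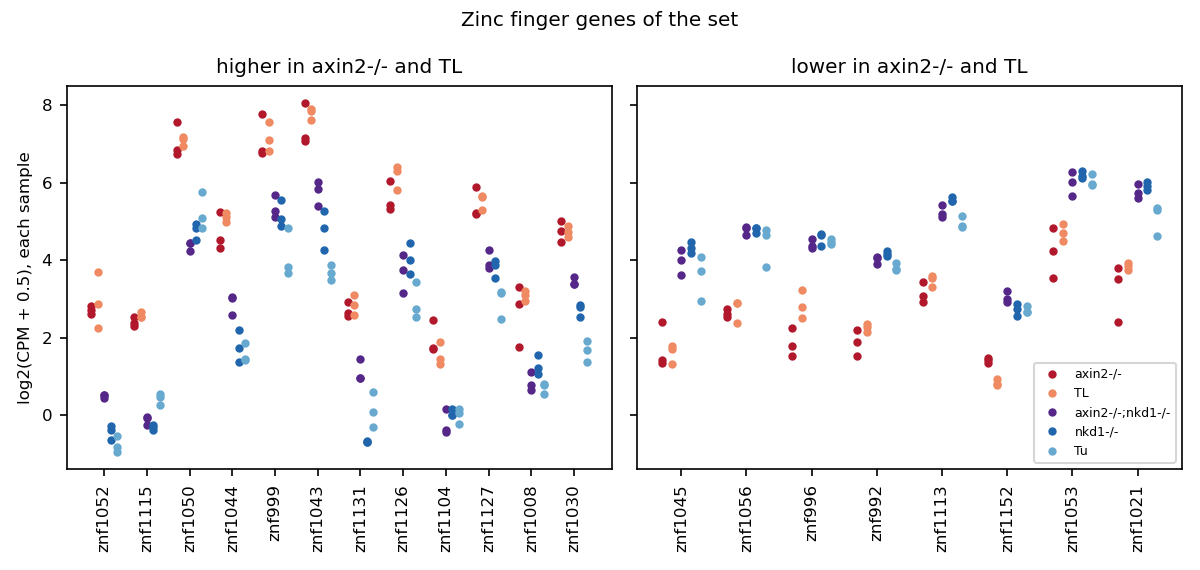
Levels of the 20 zinc finger genes as log2(CPM + 0.5), with a point for each of the 15 samples coloured by group. Left, the 12 genes higher in axin2-/- and TL; right, the 8 lower ones, such as znf1053, at 11.1 to 28.1 CPM in axin2-/- and 49.8 to 77.4 CPM in the double mutant.

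Other families, also picked out after the values were seen, had few members each. Among them were the NOD-like receptor genes nlrc7, higher in axin2-/- and TL, and nlrp1, lower there. The finTRIM gene ftr06 and the kinase-like genes pimr128 and pimr188 were lower there too. The connexin genes GJA1 (ENSDARG00000041799) and gja11, which encode gap junction channels, were both higher and lay within 4 consecutive genes tested. Predicted genes with a clone name starting in si: made up 66 of the 200 (33.0%, against 14.7% of the genes tested), and 48 of these 66 were lower in axin2-/- and TL. Genes with no symbol made up 28 (14.0%, against 7.27%).

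The 200 genes lay close together in the order of rows of the deposited table more often than other genes did. That order followed the chromosomes in large part. Of consecutive rows that could be placed in the reference gene table, 89.0% lay on one chromosome, and of these 98.6% had starts within 1 Mb. A window of rows may thus hold genes of different chromosomes. Only 90 of the 200 could be placed, so the closeness of members in the genome itself was not checked. Another of the 200 lay within 10 genes tested for 102 of them (51.0%), against 2719 of the 21414 other genes tested (12.7%). For 40 of them (20.0%, against 1.63%) the gene tested directly before or directly after was a member. In all, 34 stretches held 2 or more members, and 17 of these held genes of both directions. Of the 22 pairs of members that were direct neighbours, 19 moved in the same direction and 3 in opposite directions.

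The longest stretch held 10 members over 34 genes tested and included 3 zinc finger genes. It contained znf1104, si:dkeyp-35e5.9, si:ch211-79g12.1, si:dkey-165b20.3, znf1131, si:dkey-217g21.2, zgc:173714 and ENSDARG00000067592, all higher in axin2-/- and TL, and znf1056 and si:dkey-92j16.2, both lower. Several of its genes were those with double mutant levels above nkd1-/-: besides si:ch211-79g12.1, zgc:173714 and znf1131, si:dkey-165b20.3 was at 0.685, 0.748 and 0.614 CPM in the double mutant and 0.0197, 0.0574 and 0.117 CPM in nkd1-/- (log2 fold change 3.27 ± 0.41 SE, edgeR adjusted p = 4.96e-05, 4.04 without nkd1-/- replicate 3). A second stretch held 8 members within 9 genes tested. Its first 4, ENSDARG00000099364, ENSDARG00000071629, ENSDARG00000104640 and si:ch211-59h6.1, were higher in axin2-/- and TL, and its last 4, si:ch73-44m9.3, si:ch73-44m9.1, si:ch73-44m9.2 and sc:d217, were lower.

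Within that second stretch axin2-/- and TL also differed from each other. The gene si:ch73-44m9.3 was at 0.0194, 0 and 0.0221 CPM in axin2-/- and 0.911, 0.589 and 0.919 CPM in TL, with 3.84 to 7.79 CPM in the other groups, so TL was weakly positive and axin2-/- near 0. In si:ch73-44m9.2 the order was turned round, with 3.83, 3.10 and 2.66 CPM in axin2-/- and 0.892, 1.52 and 1.01 CPM in TL (log2 fold change 1.51 ± 0.23 SE, edgeR adjusted p = 0.00015). The 3 axin2-/- samples had no count of sc:d217, against 0.613, 0.152 and 0.283 CPM in TL.

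The pattern was also read in samples that had not chosen the genes, for sets of genes other than the 200. The background given for it is over all genes tested, with no condition on gap or level. The shares therefore do not measure how well the 200 genes hold. The conditions were applied, without the limit of 200, to the samples of 2 replicate numbers, and the 5 samples of the third were then read. Of 445 genes chosen without replicate 1, 400 (89.9%) had both axin2-/- and TL beyond all 3 other groups on the chosen side in replicate 1, against 29.7% of all genes tested that parted this way in either direction. Without replicate 2, 444 of 469 (94.7%) did so in replicate 2 (background 27.8%). Without replicate 3, 398 of 411 (96.8%) did so in replicate 3 (background 33.0%). The median difference between the mean of axin2-/- and TL and the mean of the other groups, taken in the chosen direction, was 1.52, 1.58 and 1.72 on the log2(CPM + 0.5) scale in the samples read. Replicates of a group share their parents, so this speaks to collections and not to other families of the same strain or genotype.

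The same conditions, with no limit on number, were applied to some other ways of parting 2 groups from 3. Not every pair of groups was counted, such as TL with the double mutant or Tu with axin2-/-. Parting axin2-/- and TL from the rest gave 414 genes, 222 higher and 192 lower. Parting the double mutant and nkd1-/- from the rest gave 368, nkd1-/- and Tu from the rest 116, and the strains TL and Tu from the 3 mutants 100. Parting axin2-/- and the double mutant, the groups that carry axin2-/-, from the rest gave 49. These counts describe the groups and were not tested against each other.

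Markers of some cell types were called between the mean of axin2-/- and TL and the mean of the other groups. For that contrast the background was 22.8% higher and 22.1% lower. Of 19 genes of the enveloping layer, the outer epithelium of the embryo, 12 were lower and 1 higher in the mean of axin2-/- and TL than in the mean of the other groups by edgeR, with a median log2 difference of -0.33. Their summed level was 9120 to 11000 CPM in axin2-/-, 8680 to 10600 CPM in TL, 12000 to 12600 CPM in the double mutant, 11700 to 14900 CPM in nkd1-/- and 10300 to 11600 CPM in Tu, and none of the 19 was at 0 in every sample. Of 24 genes of the marginal mesendoderm 1 was higher and 10 lower, of 15 dorsoventral patterning genes 3 and 4, of 11 yolk syncytial layer genes 2 and 4, of 10 germ cell genes 4 and 1, and of 19 maternal genes 4 and 3. The Wnt targets gave 1 and 8 and the Wnt components 7 and 12, and 1 of the 13 mitochondrial transcripts was called, higher. A call between these means places neither Tu with the far side nor TL with axin2-/-. Mean msgn1 was 24.9 CPM in axin2-/-, 19.4 in TL, 18.4 in Tu, 70.1 in the double mutant and 68.8 in nkd1-/-. Mean ved was 236 CPM in axin2-/-, 294 in TL, 337 in Tu, 353 in the double mutant and 312 in nkd1-/-. The TL samples of ved, at 252 to 326 CPM, overlapped those of nkd1-/-, at 285 to 337 CPM. In the double mutant against Tu, 12 of 27 Wnt targets were called higher and 4 lower (background 17.8% and 18.6%). The 12 include axin2 and nkd1, the mutated genes. In nkd1-/- against Tu, 9 of the 27 were higher and 2 lower (background 14.4% and 14.8%). Between the double mutant and nkd1-/-, 1 was higher in the double mutant and 0 were lower (background 6.06% and 5.49%). Of the 24 mesendoderm genes, 9 were higher and 6 lower in the double mutant than in Tu. In nkd1-/- against Tu these numbers were 7 and 3, and in the double mutant against nkd1-/- 0 and 3. The Wnt targets share genes with this list, such as msgn1, tbxta, tbx16 and eve1, and with the Wnt components, such as lef1. The counts of these lists are therefore not separate. Genes of later tissues summed to between 2.96 and 6.96 CPM in every sample. In bulk RNA, fewer cells of a type and less RNA per cell cannot be told apart. No gene of these cell type lists was among the 200, and the part of cell type makeup in the differences described above was not tested.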

How the data were processed

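Whole-embryo RNA was sequenced in 15 samples, 3 in each of 5 groups taken from the sample titles. The authors deposited 1 table of raw counts per Ensembl gene ID. The submitters' processing notes name GRCz11 and edgeR 3.30.3, with no role given; the aligner, counter and strand use are not given in the sources used here. Symbols came from a reference table (29201 of 32520 IDs), some in human capitals, which do not say which zebrafish paralogue is meant; the ID given beside such a symbol does. RefSeq placed 90 of the 200 genes (45.0%, under the 80% needed), so the order of rows in the deposited table was used for neighbours, a choice made after seeing the data.

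CPM used column totals. Tests used edgeR 4.0.16 in R 4.3.3: filterByExpr (minimum count 10, total 15), TMM, group as only factor, 10 residual degrees of freedom, and a call at an adjusted p under 0.05. DESeq2 1.42.0 and the replicate number as a block were alternatives. Counting error limits values under about 3 counts per library. Scripts were tested on simulated data. The genes, lists and tests were chosen with earlier results of these data known. The rule for named genes took the 12 largest gaps in each direction and any list member; other names were chosen after their values were seen. Gene types, protein likeness and promoter motifs were not analysed here.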

Additional observations from a re-analysis of the deposited data

Results flagged for a closer look

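For 6 of the 27 genes named by rule (22.2%, near the 19.2% of all genes tested), the difference between the double mutant and nkd1-/- departed from the difference between axin2-/- and TL, which shares no sample with it. The test was a contrast of the 2 differences in the same edgeR fit, added after the data were seen; it called 66 of the 200 genes (33.0%). It was 4.40 ± 0.51 on the log2 scale in si:ch211-79g12.1 (SE; edgeR adjusted p = 1.93e-05), 6.02 ± 1.17 in HAPLN4 (edgeR adjusted p = 0.00185), 2.37 ± 0.62 in si:dkey-19a16.7 (edgeR adjusted p = 0.0127) and 1.06 ± 0.28 in b2m (edgeR adjusted p = 0.0145). It was negative in ENTREP1, at -2.76 ± 0.58 (edgeR adjusted p = 0.00294), and in ENSDARG00000108939, at -2.26 ± 0.45 (edgeR adjusted p = 0.00228). For HAPLN4 the TL samples disagreed among themselves, as given above. Repeats of this contrast under other settings are not given here.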

How the results depend on the processing

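Counts of the 200 genes called within a side moved by over 1.5 times under 1 alternative only, the further demand that a fold change be at least 1 in size on the log2 scale, which left 46 in the double mutant against Tu and 32 in nkd1-/- against Tu. A gap of at least 1 left 272 of the 414 genes that met the conditions. Asking for a member as the gene tested directly before or directly after left 40 of the 102. Leaving out 1 sample gave 36 to 47 called in axin2-/- against TL and 51 to 58 in the double mutant against Tu. It gave 39 to 51 in nkd1-/- against Tu and 31 to 50 in the double mutant against nkd1-/-. Of the last, 24 to 35 (32 with all samples) had the double mutant displaced toward axin2-/- and TL. With all samples, 25 of the 32 were among the 94 higher genes, where 4 went the other way. The 106 lower genes split into 7 and 7. The limit near 0 given above holds for these calls too. With 1 sample left out, the conditions were met by 401 to 449 genes. Calls with a replicate block were 44, 66, 53 and 44 in that order of comparisons. The mean correlation of deviations between samples sharing a number was 0.0211 (-0.0262 to 0.0729). This lay under the 0.1 set for pairing, so the samples were not paired. A correlation over all genes tested cannot show that samples with the same number share no collection day or batch. Of 522 repeats of 58 tests of named genes, 68 lost the call and 0 changed sign; 63 of the losses came from leaving out 1 sample. The calls lost were those of 17 of the 58 tests. Gene order in the reference table, gene types, proteins and promoters were not run. Depth limits genes under 1 CPM on their low side, where folds rest on a few counts.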
